A study of Mus musculus with 2 samples.

Results

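The genes described here move glucose into the cell, break it down to pyruvate and lactate, and store it as glycogen. They were 39 genes taken by name among 54680 loci, from a list drawn up with earlier results of these data known, and they were followed in CT26 cells, a mouse colon cancer line. Both groups were infected with lentivirus and kept in RPMI medium with serum for 6 days. The knockdown group carried a short hairpin RNA against Setdb1, a histone H3 lysine methyltransferase gene, and the labels call these cells differentiated. The control group carried the vector without that hairpin. Each group had 1 RNA sequencing library, so the values compare 2 libraries, no replicate spread exists, and no test between conditions could be made. How many hairpin sequences were used, and whether the cells were pooled or cloned, is not given in the sources used here.

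Glycolysis splits 1 glucose into pyruvate in the cytosol, and lactate dehydrogenase then turns pyruvate into lactate, which leaves through monocarboxylate transporters. Most steps have several isozymes, products of different genes that do the same reaction with different kinetics and tissue distribution. Many of these genes are textbook targets of the hypoxia-inducible factors HIF-1 and HIF-2 and of MYC, and tumour cells are known for running glycolysis at a high rate even with oxygen. Glycogen is built from glucose 6-phosphate by way of phosphoglucomutase, UDP-glucose pyrophosphorylase, glycogen synthase and a branching enzyme.

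Levels are given in FPKM, fragments scaled to the length of the gene model and to a common sequencing depth, which allows isozymes of different length to be compared. Log2 ratios compare FPKM + 1 of the knockdown with that of the control, so changes of low genes come out too small. Whole reads could be recovered from the table, 18421604 in the control and 19045830 in the knockdown library. A read ratio, or fold by reads, sets each library's reads against its own total and carries a 95% exact binomial (Clopper-Pearson) interval. Intervals cover counting error only, since reads without molecular identifiers are not independent molecules. Setdb1 itself had levels of 10.4 FPKM in the control and 2.47 FPKM after knockdown. Of 10 colon epithelial markers, 3 (Epcam, Cdh1 and Cdx1) were at 0 reads in both libraries. Another 4, Cdx2, Vil1, Krt8 and Lgals4, stayed under 1 FPKM, and the keratins Krt18 (37.7 and 90.0 FPKM, control first), Krt19 (1 and 53 reads) and Krt20 (5.07 and 35.6 FPKM) were higher in the knockdown. Their part in the results below was not tested.

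Promoters of a few members are shown first, because most of the members were higher together and hypoxia-inducible factors are known to bind a core of ACGTG or GCGTG. RefSeq windows on GRCm38.p6, from 250 bases before to 50 bases after each start site, were found for 38 members. Slc2a3 was not matched. The stretches below are the 210 bases before a RefSeq transcript start, which for Slc16a3 and Ldha lies inside the gene model of the table. Capitals mark ACGTG on either strand, so that it also reads CACGT. Slc16a3, Ldha and Pgk1 are shown as genes that were higher and have matches. Pdk1 was also higher and has no ACGTG but does hold GCGTG. Slc16a1 has matches of ACGTG and also holds GCGTG, but was not higher.
Slc16a3: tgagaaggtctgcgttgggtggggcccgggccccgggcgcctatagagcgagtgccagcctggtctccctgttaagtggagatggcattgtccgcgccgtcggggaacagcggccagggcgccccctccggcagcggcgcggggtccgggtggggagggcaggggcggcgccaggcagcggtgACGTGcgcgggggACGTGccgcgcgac
Ldha: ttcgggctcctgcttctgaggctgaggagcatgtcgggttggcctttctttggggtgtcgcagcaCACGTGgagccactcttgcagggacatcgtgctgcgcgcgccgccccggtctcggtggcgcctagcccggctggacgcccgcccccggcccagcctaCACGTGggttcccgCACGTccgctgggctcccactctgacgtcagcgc
Pgk1: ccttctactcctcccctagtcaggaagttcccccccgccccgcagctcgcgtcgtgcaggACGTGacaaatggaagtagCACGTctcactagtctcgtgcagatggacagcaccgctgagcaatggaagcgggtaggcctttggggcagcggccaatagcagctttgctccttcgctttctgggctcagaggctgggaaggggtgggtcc
Pdk1: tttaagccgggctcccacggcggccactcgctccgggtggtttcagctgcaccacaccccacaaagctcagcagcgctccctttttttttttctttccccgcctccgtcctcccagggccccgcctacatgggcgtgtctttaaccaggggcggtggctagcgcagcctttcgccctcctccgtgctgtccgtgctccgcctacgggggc
Slc16a1: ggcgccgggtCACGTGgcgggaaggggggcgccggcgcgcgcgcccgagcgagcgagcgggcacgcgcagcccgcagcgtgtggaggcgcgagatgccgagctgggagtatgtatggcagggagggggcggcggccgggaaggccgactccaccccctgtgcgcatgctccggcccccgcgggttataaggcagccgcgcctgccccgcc

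These stretches lie at chr11:120948857-120949066 (Slc16a3), chr7:46845594-46845803 (Ldha), chrX:106186890-106187099 (Pgk1), chr2:71873014-71873223 (Pdk1) and chr3:104638454-104638663 (Slc16a1), all on the plus strand, and 14 bases of the Slc16a3 stretch are in annotated exons. Counted from the start site, the matches began at -27 and -14 in Slc16a3, at -150 and -131 in Pgk1, and at -34 for the nearest match of Ldha. The other 2 matches of Ldha and that of Slc16a1 in the stretch shown stand inside CACGTG, the letters that MYC and USF are known to bind. In the full windows of these start sites, CACGTG counts on each strand. There ACGTG was found 3 times in Slc16a1, 5 times in Ldha, and 2 times each in Slc16a3 and Pgk1. GCGTG was found 2 times each in Slc16a1, Ldha and Pdk1, and 0 times in Slc16a3 and Pgk1. Among the 20 members at least 2-fold higher in the knockdown library, 11 had ACGTG in at least 1 window. Among the other 18 matched members, 10 did, a group that also holds members higher by less than 2-fold and members at or near 0 reads. Over all 27025 genes with a window the share was 21.8%. GCGTG was found for 10 of the 20, 13 of the 18 and 35.1% of all genes. Several members have more than 1 window, and window base composition was not matched. A match is a run of letters, not a binding site, and whether any such factor has a part in the results was not tested.

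Nearly the whole route from glucose to lactate was higher in the knockdown library. FPKM reached 1 in both libraries for 31 of the 39 members, and no member passed this filter in 1 library only. Of these 31, 27 were higher and 4 lower in the knockdown library. At the 2-fold threshold 20 were higher and 0 lower, against a background of 6.81% higher and 4.85% lower among the 10671 genes that reached 1 FPKM in either library. The members had a median log2 ratio of 1.48 (quartiles 0.64 and 2.04), and all genes at that level had -0.00039. Of the 11 members with a mean of 100 FPKM or more, 9 were at least 2-fold higher, of which Slc2a1 and Gapdh reach that mean only through the knockdown library. The shares were 8.39% higher and 5.48% lower among all 584 genes at that mean, and nothing is read from this count. The loci named as members held 1.58% of all reads in the control and 4.23% in the knockdown library. Counted by reads, the interval of the ratio lay above 1 for 28 of the 35 members with reads, below 1 for Slc16a1 and Pdha1, and held 1 for Pgam2, Pdk2, Pfkfb1, Pfkfb2 and Pfkfb3. These intervals cover counting error only, so small differences of genes with many reads pass too. The same count over all genes was not made, and nothing is read from this one. In these bulk libraries, a change in the share of cells that express a gene and a change in RNA per cell cannot be told apart. Another gene with reads overlaps 15 of the members, 11 of them among the 20, and those values are less certain.

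**Figure D1:**
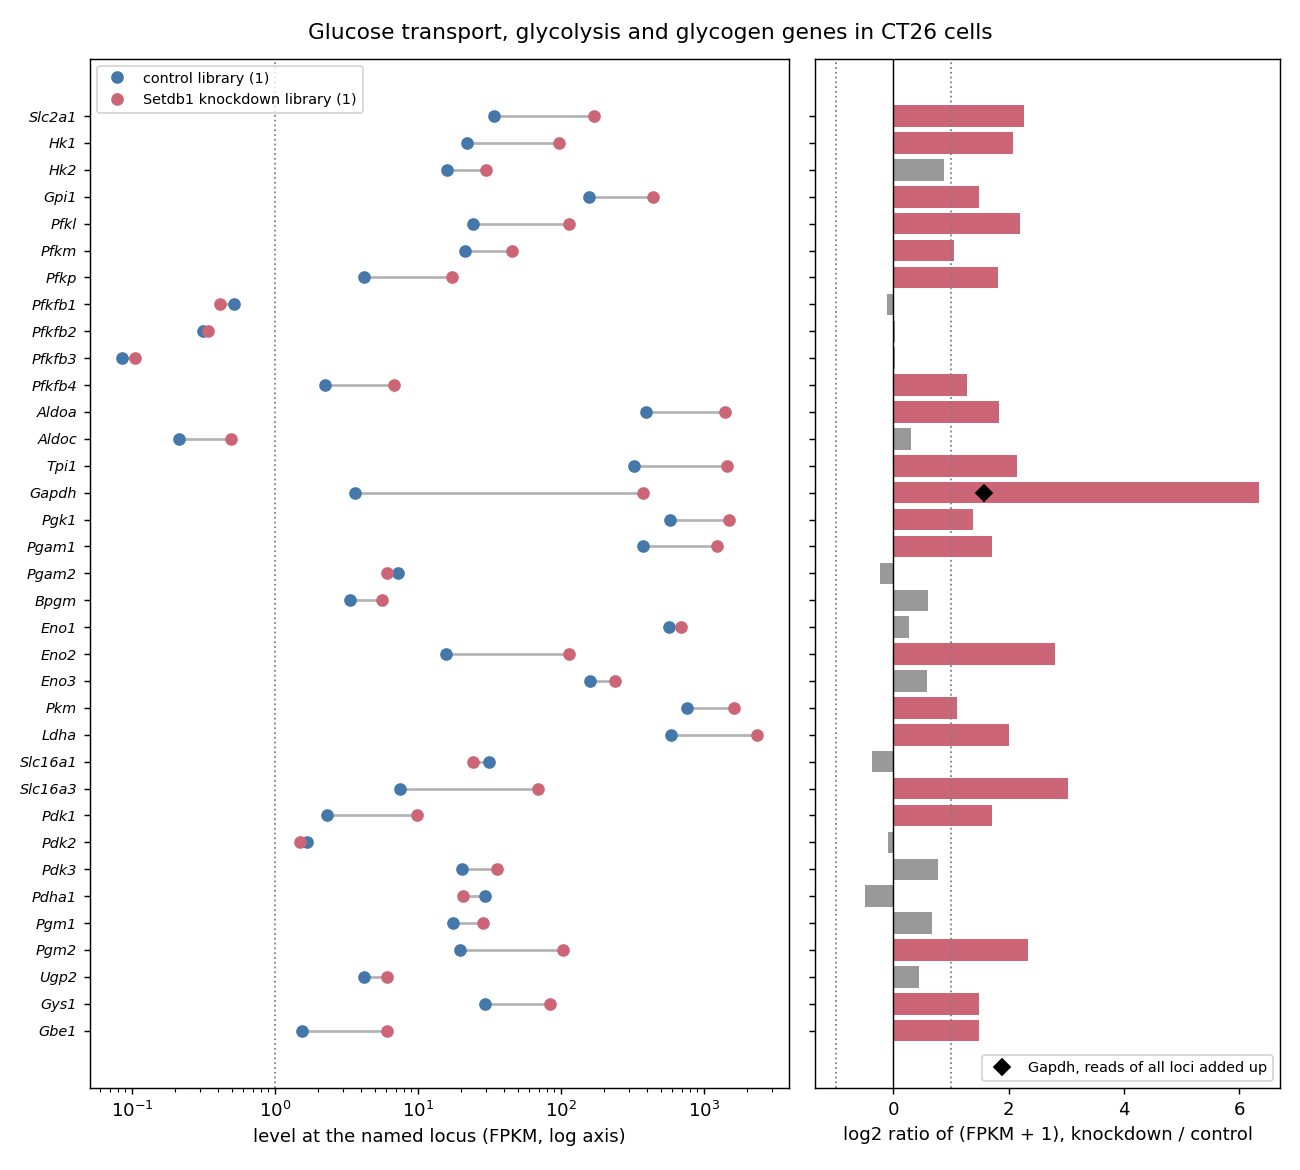
Level of each member with reads in the control and the Setdb1 knockdown library (left, FPKM on a log axis, dotted line at 1 FPKM) and its log2 ratio of (FPKM + 1) (right, dotted lines at 2-fold, red bars at least 2-fold higher). Each point is 1 library. The bars pass the 2-fold line for 20 members, and the diamond puts Gapdh at 1.58 once the reads of all its loci are added up. Slc2a3, Ldhb, Pdk4 and Pygl had 0 reads and are not drawn.

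Of the 2 listed glucose transporter genes, 1 had reads. Slc2a1 (ENSMUSG00000028645, chromosome 4, 119108711 to 119137983 in GRCm38), which encodes the widely expressed transporter GLUT1, measured 34.3 FPKM (2251 reads) in the control and 169 FPKM (11106 reads) with the hairpin. Its log2 ratio was 2.27 and its read ratio 4.77 (4.56 to 5.00). Slc2a3, which encodes the high-affinity transporter GLUT3, had 0 reads in both libraries. A count of 0 allows up to 3 reads, or 0.0221 FPKM, so a change of Slc2a3 was not detectable at this depth. Gm4482, a processed pseudogene inside its annotated span, had 48 and 73 reads.

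Both listed hexokinases, which trap glucose as glucose 6-phosphate, were higher, and Hk1 by more than Hk2. Hk1 (ENSMUSG00000037012, chromosome 10, 62268855 to 62379908) went from 22.01 FPKM (3518 reads) to 96.3 FPKM (15395 reads). On the log2 scale the ratio was 2.08, or 4.23-fold by reads (4.08 to 4.39). Hk2, the isozyme best known as induced in tumours, had levels of 15.9 FPKM in the control and 29.998 FPKM after knockdown, a log2 ratio of 0.87. Hk1 thus made up 58.0% of the hexokinase level in the control and 76.3% in the knockdown library. The ratio of Hk1 to Hk2 was 2.32 times as high in the knockdown library (2.17 to 2.48, a 95% normal interval on the log odds of the reads). Gpi1 (ENSMUSG00000036427, chromosome 7, 34201330 to 34230336), the isomerase that makes fructose 6-phosphate, went from 157 FPKM (18989 reads) to 441 FPKM (53290 reads), a log2 ratio of 1.48 with a read ratio of 2.71 (2.67 to 2.76).

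The committed step showed the same unequal pattern among its isozymes. Pfkl (ENSMUSG00000020277, chromosome 10, 77986947 to 78010083), the liver-type phosphofructokinase, stood at 24.3 FPKM (3032 reads) without and 114 FPKM (14259 reads) with the knockdown. Its log2 ratio was 2.19, with a read ratio of 4.55 (4.37 to 4.73). Pfkp, the platelet type, went from 4.21 to 17.3 FPKM (1058 and 4345 reads), a log2 ratio of 1.81 with a read ratio of 3.97 (3.71 to 4.25). Pfkm, the muscle type, went from 21.3 to 45.3 FPKM (1331 and 2837 reads) and was just past the threshold at 1.06, with a read ratio of 2.06 (1.93 to 2.20). In the control library Pfkl and Pfkm were close, at 48.8% and 42.8% of the summed level. In the knockdown library Pfkl held 64.5% and Pfkm 25.7%, and the ratio of Pfkl to Pfkm was 2.21 times as high (2.04 to 2.38). Pfkm overlaps Senp1 and Pfkp overlaps Pitrm1. Whether counting used strand is not given in the sources used here, and both neighbours were lower in the knockdown library, at log2 ratios of -0.47 and -1.02.

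Fructose 2,6-bisphosphate, the strongest activator of phosphofructokinase 1, is made and removed by the 4 bifunctional PFKFB enzymes, and 1 of their genes was measured above 1 FPKM. Pfkfb4 (ENSMUSG00000025648, chromosome 9, 108991778 to 109032228) had 203 reads (2.22 FPKM) in the control and 619 reads (6.78 FPKM) in the knockdown library. That is a log2 ratio of 1.27, or 2.95-fold by reads (2.51 to 3.47). Pfkfb3, whose enzyme has the highest kinase activity of the family and is a known hypoxia target, had only 12 and 15 reads. Pfkfb1 had 39 and 31 reads and Pfkfb2 had 43 and 46, all 3 with intervals that hold 1.

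From aldolase to lactate dehydrogenase, the main gene of each step of the direct route was at least 2-fold higher, apart from enolase. Aldoa (ENSMUSG00000030695, chromosome 7, 126795234 to 126800751), which encodes the aldolase of muscle and most tissues, measured 394 FPKM (21505 reads) in the control and 1410 FPKM (76857 reads) with the hairpin, a log2 ratio of 1.83 with a read ratio of 3.46 (3.40 to 3.51). Aldoc, the brain form, had 13 and 30 reads and stayed under 0.5 FPKM. A second row named Aldoa, directly upstream on the same strand and with no protein match, had 142 and 70 reads, so it was lower where the main row was higher. Tpi1 (ENSMUSG00000023456, chromosome 6, 124810586 to 124814296), the triosephosphate isomerase, went from 325 FPKM (16775 reads) to 1442 FPKM (74346 reads). This gives a log2 ratio of 2.14, or 4.29-fold by reads (4.22 to 4.36).

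Gapdh, the dehydrogenase that makes NADH and is often used as a reference gene, needed its copies to be read with it. The table holds 257 loci with the Swiss-Prot entry of Gapdh. Reads of a gene with many processed copies can be divided among loci. How reads that match several loci were counted is not given in the sources used here. The reads of a single locus below may therefore come from RNA of another copy. The locus named Gapdh (ENSMUSG00000057666, chromosome 6, 125161715 to 125166467) had 281 reads in the control and 29055 in the knockdown, for a log2 ratio of 6.34. The processed pseudogene Gm13394 had 40784 and 94880 reads, a log2 ratio of 1.22. The next copies by reads, Gm5559, Gm7336 and Gm12070, had log2 ratios of 1.18, 1.23 and 1.22. The 4 pseudogenes thus differed between the libraries to a like degree, and the named locus stood apart from all of them. Its share of the entry's reads was 0.663% in the control and 22.9% in the knockdown library. Added up over the 257 loci, reads were 42414 in the control and 126904 in the knockdown, for a log2 ratio of 1.58 on the length of the Gapdh model and a read ratio of 2.89 (2.86 to 2.93). Adding up FPKM values instead weights the copies by their own length and gave 1.31. Both sums put Gapdh at least 2-fold higher, near Gpi1 and Pgk1. The Gapdh model of 4133 bases is far longer than the copy Gm13394 of 1000 bases, so the level of Gapdh in FPKM is not compared with other genes here.

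**Figure D2:**
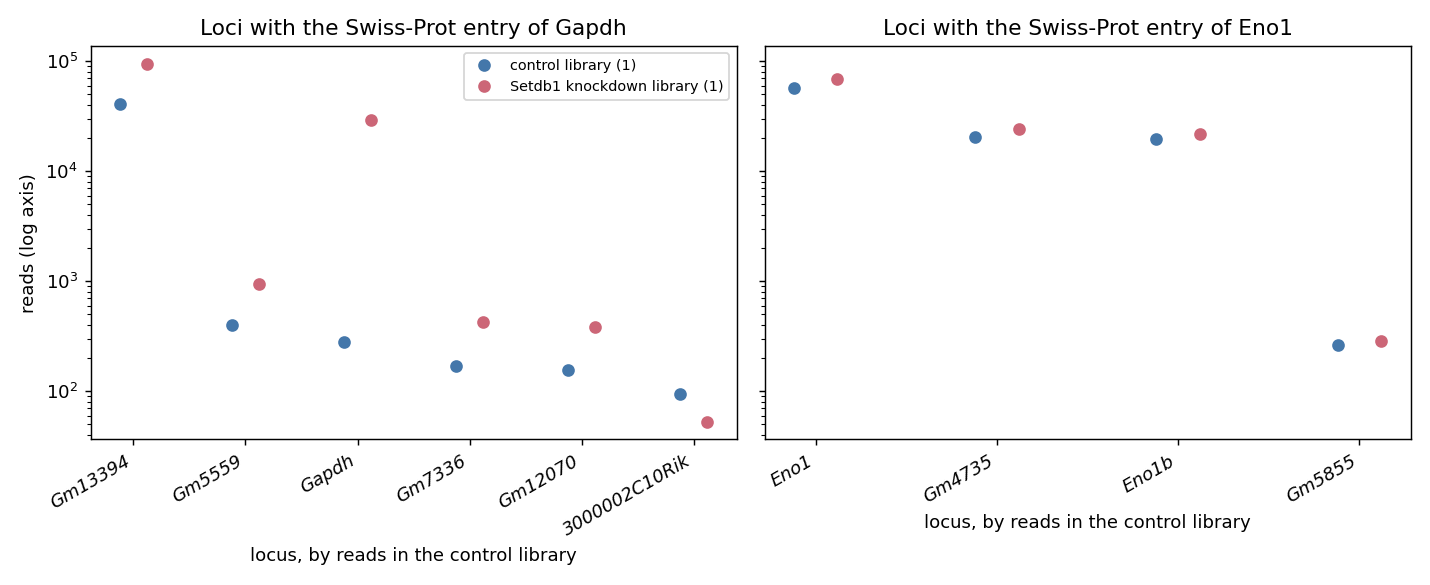
Reads at the loci that carry the Swiss-Prot entry of Gapdh (6 with most control reads) and of Eno1 (4 with most), on a log axis, with 1 point per library. The locus named Gapdh goes from 281 to 29055 reads while Gm13394 goes from 40784 to 94880, and the Eno1 loci keep close to equal reads in both libraries.

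Pgk1 and Pgam1, the steps after Gapdh, were higher by similar amounts. Pgk1 (ENSMUSG00000062070, chromosome X, 106187100 to 106203699), the kinase that gives the first ATP, went from 574 to 1491 FPKM (24136 and 62656 reads), a log2 ratio of 1.37 with a read ratio of 2.51 (2.47 to 2.55). Pgam1 (ENSMUSG00000011752, chromosome 19, 41911871 to 41918664), the main phosphoglycerate mutase, went from 375 to 1222 FPKM (12870 and 41921 reads), a log2 ratio of 1.70 with a read ratio of 3.15 (3.09 to 3.21). Pgam2, the muscle form, had 115 and 96 reads (7.31 and 6.10 FPKM) and was not higher. Bpgm, which makes 2,3-bisphosphoglycerate, went from 3.36 to 5.61 FPKM, a log2 ratio of 0.60.

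Enolase differed least of the steps between aldolase and lactate, and its main isozyme was nearly level. Eno1 (ENSMUSG00000063524, chromosome 4, 150236721 to 150248879), the general isozyme, measured 568 FPKM (57235 reads) in the control and 688 FPKM (69306 reads) with the hairpin. The log2 ratio was 0.28, or 1.17-fold by reads (1.16 to 1.18). Its copies Gm4735 and Eno1b, with 20452 and 19488 control reads, had log2 ratios of 0.24 and 0.18, so all 3 loci were nearly level. Eno2 (ENSMUSG00000004267, chromosome 6, 124760053 to 124769673), the neuronal isozyme, went from 15.6 FPKM (1376 reads) to 115 FPKM (10102 reads). On the log2 scale the ratio was 2.80, or 7.10-fold by reads (6.71 to 7.52). Eno3, the muscle isozyme, went from 158 to 239 FPKM, a log2 ratio of 0.59. Eno2 was 2.10% of the enolase level in the control and 11.01% in the knockdown library, or 1.37% and 7.63% with the Eno1 copies added to Eno1. The summed enolase level was 1.40 times as high in the knockdown library, and 1.32 times with those copies. The same quotient was 3.57 for aldolase, 4.43 for Tpi1, 2.60 for Pgk1, 3.21 for the mutases, 2.14 for Pkm and 4.01 for lactate dehydrogenase.

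Pkm and Ldha close the route. Pkm (ENSMUSG00000032294, chromosome 9, 59656368 to 59679375), which encodes the pyruvate kinases M1 and M2 by splicing that gene totals cannot separate, was at 761 FPKM (71263 reads) in the control library, the highest level of a single row among the members there. With the reads of all loci of an entry set on the length of the named model, Eno1 was higher, at 967 FPKM against 770.5 FPKM. The Eno1 model is longer than its copies, and adding up FPKM values over the loci gave 2010 FPKM for Eno1 and 786 FPKM for Pkm. In the knockdown library Pkm was at 1629 FPKM (152614 reads), a log2 ratio of 1.10 with a read ratio of 2.07 (2.05 to 2.09). AC160637.1, a locus inside its span, had 280 and 1537 reads. Ldha (ENSMUSG00000063229, chromosome 7, 46841475 to 46855627), the lactate dehydrogenase subunit that favours lactate formation, went from 585 FPKM (36268 reads) to 2345 FPKM (145359 reads). That is a log2 ratio of 2.001, or 3.88-fold by reads (3.83 to 3.92). It was the highest single row among the members in the knockdown library. Ldhb, the heart-type subunit, had 0 reads in both libraries, which allows up to 0.102 FPKM. Among the 40 loci with the highest FPKM, 0 were members in the control and 6 in the knockdown library. These counts take the named loci only. Gm13394, the Gapdh copy with most reads, is not among the members and was at 2177 and 5065 FPKM, above every member row in both libraries. Whether those reads come from Gm13394 itself or from Gapdh or another copy cannot be told here.

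The order of the lactate transporters was reversed. Slc16a3 (ENSMUSG00000025161, chromosome 11, 120948480 to 120960868), which encodes MCT4, the exporter typical of glycolytic cells, went from 7.50 FPKM (747 reads) to 68.5 FPKM (6828 reads). Its log2 ratio of 3.03 was the highest of the members once the Gapdh loci were added up, and its read ratio was 8.84 (8.20 to 9.55). Slc16a1 (ENSMUSG00000032902, chromosome 3, 104638668 to 104658462), which encodes the bidirectional transporter MCT1, was lower in the knockdown library, 24.2 against 31.5 FPKM. This gives a log2 ratio of -0.37, or 0.744-fold by reads (0.701 to 0.789). Slc16a3 made up 19.2% of their summed level in the control and 73.9% in the knockdown library. The ratio of Slc16a3 to Slc16a1 was 11.9 times as high (10.8 to 13.1), the widest difference among the 13 gene pairs compared.

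**Figure D3:**
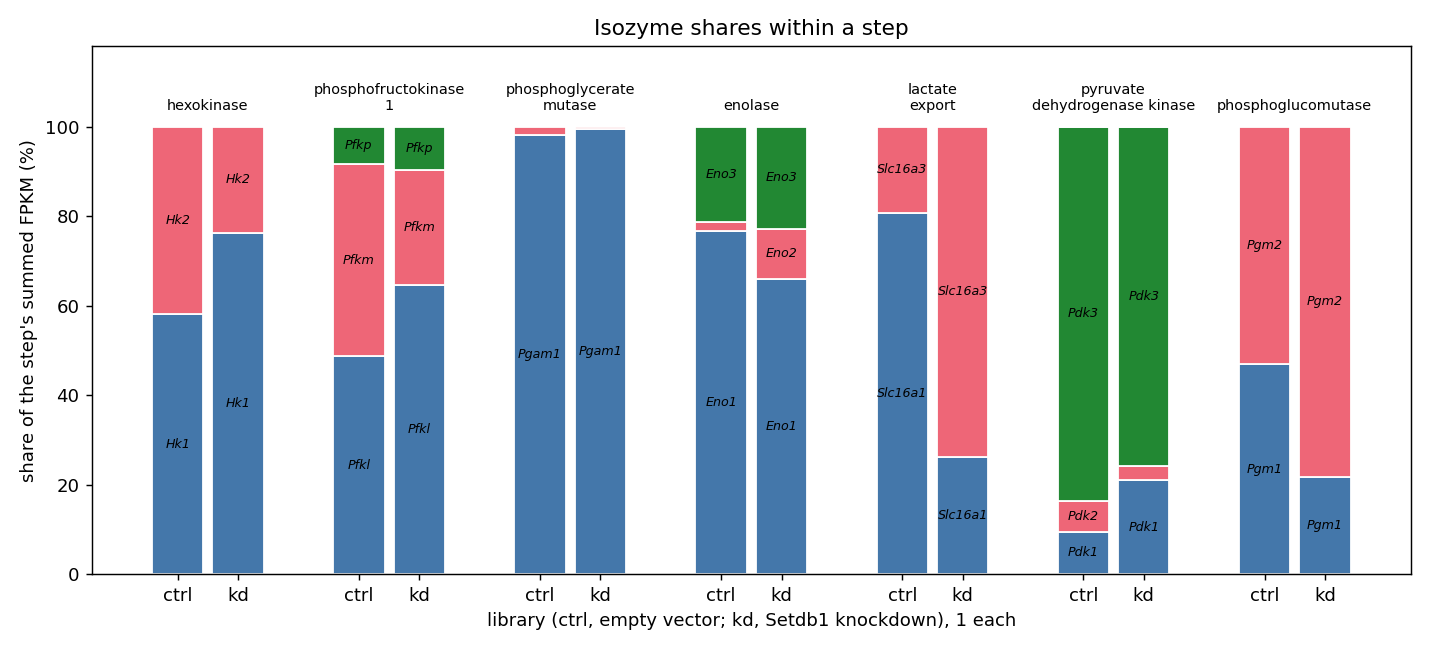
Share of each isozyme in the summed FPKM of its step, in percent, with the control library (ctrl) and the Setdb1 knockdown library (kd) side by side for 7 steps. Slc16a3 goes from 19.2% to 73.9% of lactate export, Hk1 from 58.0% to 76.3% of hexokinase, and Pfkl from 48.8% to 64.5% of phosphofructokinase 1.

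At the branch into mitochondria, Pdk1 and Pdk3, kinases that switch off pyruvate dehydrogenase, were higher, and Pdha1 of that enzyme was lower. Pdk1 (ENSMUSG00000006494, chromosome 2, 71873224 to 71903858) went from 2.32 FPKM (338 reads) to 9.90 FPKM (1443 reads). The log2 ratio was 1.72, or 4.13-fold by reads (3.67 to 4.66). Pdk3, the most abundant of the kinases, went from 20.4 to 35.6 FPKM (977 and 1710 reads), a log2 ratio of 0.78 with a read ratio of 1.69 (1.56 to 1.83). Pdk2 had 99 and 89 reads, and Pdk4, the fasting-induced form, had 0 reads in both libraries, which allows up to 0.0456 FPKM. Pdk1 was 9.52% of the summed kinase level in the control and 21.05% in the knockdown library. Pdha1, the E1 alpha subunit that these kinases phosphorylate, measured 29.5 FPKM (2065 reads) in the control and 20.6 FPKM (1444 reads) with the hairpin. On the log2 scale the ratio was -0.50, or 0.676-fold by reads (0.632 to 0.724). Set against each other, Ldha was 19.8 times the level of Pdha1 in the control and 114 times in the knockdown library.

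The listed glycogen genes were all higher, apart from Pygl, the liver phosphorylase, which had 0 reads in both libraries and a limit of 0.0232 FPKM. The table's gene names for phosphoglucomutase are the reverse of its protein names. Its Pgm2 row (ENSMUSG00000025791, chromosome 4, 99929414 to 99987294) is matched to the protein phosphoglucomutase-1, the main enzyme of the type, and its Pgm1 row to phosphoglucomutase-2. The Pgm2 row went from 19.8 FPKM (1085 reads) to 104 FPKM (5663 reads). That is a log2 ratio of 2.33, or 5.05-fold by reads (4.73 to 5.39). The Pgm1 row went from 17.6 to 28.7 FPKM, a log2 ratio of 0.68, so the 2 enzymes were near each other in the control and 3.61-fold apart in the knockdown library. Gys1 (ENSMUSG00000003865, chromosome 7, 45434844 to 45456619), the muscle-type glycogen synthase, went from 29.5 FPKM (2643 reads) to 84.2 FPKM (7554 reads), a log2 ratio of 1.48 with a read ratio of 2.76 (2.64 to 2.89). Ruvbl2, which overlaps it, was lower, with 5333 and 4116 reads. Gbe1, the branching enzyme, went from 1.56 FPKM (156 reads) to 6.11 FPKM (613 reads). This gives a log2 ratio of 1.48, or 3.80-fold by reads (3.18 to 4.56). Ugp2, which makes the UDP-glucose that Gys1 uses, differed less, from 4.21 to 6.07 FPKM (log2 ratio 0.44).

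In 5 further lists of glucose metabolism the medians lay between -0.23 and 0.0674. Of 34 further genes of glycolysis and gluconeogenesis, 12 reached 1 FPKM. Their median was 0.00744, and at the 2-fold threshold 3 were higher and 2 lower. The highest was Bsg (basigin), the chaperone that carries MCT1 and MCT4 to the membrane, from 367 to 1150 FPKM (log2 ratio 1.65). The lowest was Pck2, the mitochondrial gluconeogenic carboxykinase, from 55.9 to 21.4 FPKM (log2 ratio -1.35). The hexokinase gene Hk3 and the liver pyruvate kinase gene Pklr had 0 reads in both libraries, and Hkdc1 had 6 and 0.

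Further glycogen genes were divided. Of 23, 12 reached 1 FPKM, with a median of -0.11, and at the 2-fold threshold 1 was higher and 2 were lower. Pygb, the brain-type phosphorylase and the main one measured, was highest on this scale of FPKM + 1, from 27.2 to 62.3 FPKM (log2 ratio 1.17). By reads Epm2a differed more, with 14 and 71 reads and a read ratio of 4.91 (2.74 to 9.42), against 2.21 for Pygb. Its log2 ratio with the added 1 was 0.81. Stbd1, which tethers glycogen to membranes, was lowest, from 15.6 to 5.67 FPKM (log2 ratio -1.31). The other gene past the threshold was Gsk3b, from 6.46 to 2.68 FPKM (log2 ratio -1.02). Gyg, the glycogenin that primes new glycogen, was lower too but short of the threshold, at 25.1 and 12.7 FPKM (log2 ratio -0.94). Gyg, Gsk3b and Epm2a were named after their values were seen.

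Pathways that branch from or follow glycolysis stayed within 2-fold for every gene that reached 1 FPKM. The 10 pentose phosphate genes had a median of -0.15, from -0.61 for Prps2 to 0.23 for H6pd. The 9 genes of pyruvate entry into mitochondria had a median of -0.23, from -0.79 for Dld to 0.14 for Dlat. The 16 genes of the tricarboxylic acid cycle had a median of 0.0674, from -0.59 for Mdh2 to 0.35 for Dlst. Medians of the members and of these lists are descriptions of the same 2 libraries, and the difference between them was not tested.

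**Figure D4:**
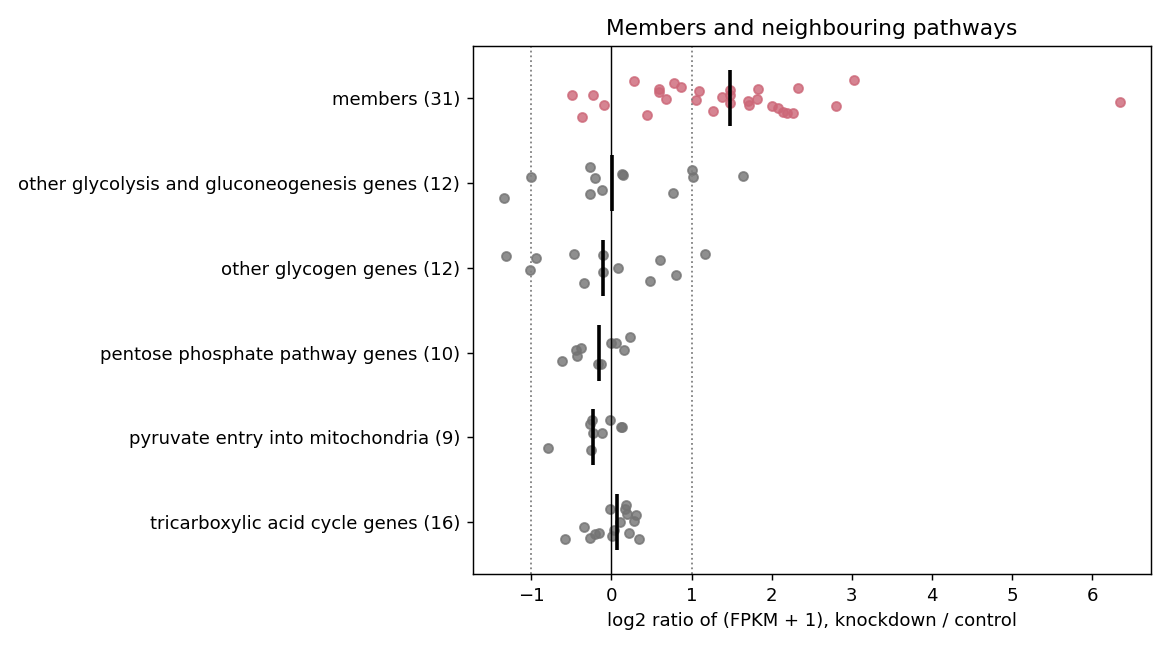
Log2 ratio of (FPKM + 1), knockdown over control, for each gene at 1 FPKM or more, with the number of genes in brackets, a thick line at each median and dotted lines at 2-fold; vertical scatter within a row has no meaning. The members centre on 1.48, and the 5 neighbouring lists centre between -0.23 and 0.0674. The point at 6.34 is the locus named Gapdh.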

How the data were processed

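Members, lists and alternatives were chosen with earlier results of these data known. Per the labels, total RNA was isolated with TRIzol for NEBNext Ultra libraries. The submitters' processing notes name GRCm38, CASAVA, HISAT2 and featureCounts 1.5.0-p3, and settings are not given in the sources used here. The authors deposited FPKM values for 54680 loci, each with its length. FPKM times length was a whole multiple of 1 step (within 0.001) for 100% of values above 0, which gave reads and a common depth of 18731117. The totals differ 1.03-fold, which the main ratios still carry.

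Log2 ratios used a pseudocount of 1, a filter of 1 FPKM in at least 1 library and a 2-fold threshold. No p-value was computed, as each group had 1 library. The locus with most reads stood for a symbol. Positions equalled GENCODE M21 for 38 of the 39 members. All members are accounted for. Full values were given to members at least 2-fold apart and to main isozymes, and for each further list its highest and lowest genes were named. A few other genes of those lists were named as well. Only the 2-fold call on the log2 ratio was tested on simulated counts. Intervals, isozyme shares, locus sums and promoter matches were not part of that simulation. The work used numpy 2.4.6, scipy 1.17.1, pandas 2.3.3 and matplotlib 3.10.9 in Python 3.11.15.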

Additional observations from a re-analysis of the deposited data

How the results depend on the processing

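The count of members at least 2-fold higher stayed at 20 with a pseudocount of 0.1, without a filter, with a filter at 5 FPKM, under median-ratio, own-total and top-100-free scaling and with loci summed, and was 19 under upper-quartile scaling, where Pfkm was at 0.998. It was 25 at 1.5-fold and 9 at 4-fold. The 9 include Gapdh through its named locus only, and Ldha at 2.001, with a read ratio of 3.88. Shares of all genes at these 2 thresholds were not computed, so nothing is read from the 25 and the 9. The count at least 2-fold lower was 0 under all of these settings. The median ran from 1.42 to 1.51, and was 1.06 without a filter, which adds 8 members at or near 0. For summed Gapdh loci the log2 ratio was 1.53 when scaled by own read totals, 1.54 by the sum leaving out the 100 highest genes, 1.52 by the upper quartile, 6.34 at the named locus alone and 1.31 with FPKM values added up, an alternative chosen after seeing the data. Of 186 alternative values of single members, 151 stayed within counting error, 35 moved and 0 changed sign. No paired analysis was possible because the control and the knockdown were 1 library each, so none could be left out either. Depth limits Slc2a3, Ldhb, Pdk4 and Pygl, at 0 reads, and Pfkfb1, Pfkfb2, Pfkfb3 and Aldoc, with 12 to 46 reads.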

Other observations

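Eno2, Tpi1 and Gapdh lie within 406 kb of each other on chromosome 6, with 40.9 kb between Eno2 and Tpi1. Of the 31 loci in this stretch, 16 reached 1 FPKM. The 13 that are not members had log2 ratios from -0.91 (Nop2) to 0.80 (Ptms), with a median of 0.32 and 0 past 2-fold in either direction with the pseudocount of 1. Spsb2, whose annotated end overlaps Tpi1, had 817 and 805 reads. The 3 glycolytic genes, at 2.80, 2.14 and 6.34 (1.58 with all Gapdh loci), were past 2-fold on this scale of FPKM + 1. Without the added 1, Gpr162 (1.04 and 2.23 FPKM, 75 and 160 reads) and A230083G16Rik (0.539 and 1.24 FPKM, 10 and 23 reads) were past 2-fold too.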
